A study of Mus musculus with 2 samples.

Results

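On the rows that hold their published values, the mitochondrial genes MT-ATP6, MT-ATP8, VDAC3 and MRPL34 differed in opposite directions between the dorsolateral prostate of TRAMP mice and that of non-transgenic mice. The table gives these rows other names or none, and on the rows named for the genes no difference reached 1.5-fold and that of MRPL34 had the other sign. For 0 of 94 published genes that could be compared did any row carry both the name and the values. The rows named for the genes are thus not known to measure them. The genes are 4 of the 136 genes in the study's published list, which was selected on these samples with a 1.5-fold cut-off. MT-ATP6 and MT-ATP8 share 1 pair of values and were counted once, so the 4 genes stand for 3 pairs of values. Each gene was found in the deposited table of 35557 rows by its 2 log2 signals, matched to 6 decimals on 1 row or on the mean of 2 or 3 rows. Both the gene list and the rows were thus chosen by the same contrast that is described here, and the directions are a description of that choice with no test.

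TRAMP mice carry the SV40 large T antigen under the rat probasin promoter, which is active in prostate epithelium, and develop prostate cancer. The labels give C57BL/6 as the background of both groups and state that both received vehicle, and the methods give an age of 20 weeks. The deposited data hold 1 sample per group, and the labels state that RNA was pooled, so the spread between mice is unknown and no p-value can be given. The methods count 3 non-transgenic and 4 TRAMP mice.

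Mitochondria make most of the ATP of a cell by oxidative phosphorylation. MT-ATP6 and MT-ATP8 are encoded by mitochondrial DNA, overlap each other there, and are subunits of the membrane part of ATP synthase. VDAC3 and MRPL34 are encoded in the nucleus. VDAC3 is a porin, a channel of the outer membrane through which metabolites pass, and MRPL34 is a protein of the large subunit of the mitochondrial ribosome, which translates the transcripts of mitochondrial DNA. Secretory prostate epithelium is known for a metabolism that exports citrate instead of oxidising it fully.

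VDAC3 and MRPL34 are also genes for which the study lists qRT-PCR primers, shown here because they define the stretch of each transcript that was amplified. That stretch was not located here. The methods text names Mrpl23 and not Mrpl34 among the genes selected, while the primer list names Mrpl34. The primers are printed 5′ to 3′ with no part marked in capitals.
Vdac3 forward: gttggttcgagaagaccttcag
Vdac3 reverse: gcctttcctaggtcgcaataa
Mrpl34 forward: actgcacagcctgaagatac
Mrpl34 reverse: gccacgggaacattgtaaatc
The primers are 20 to 22 bases long, and 10 or 11 bases of each are G or C. No primer for MT-ATP6 or MT-ATP8 was in the list used here, and the qRT-PCR values were not analysed here.

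On the rows holding their values, MT-ATP6 and MT-ATP8 were lower in the TRAMP sample. A transcript cluster is a set of probes read together as the measure of a transcript. Its identifier is given here as in the full deposited table. For the VDAC3 and MRPL34 rows a shorter deposited table gives other identifiers, so which probes gave the values is not known. The values of MT-ATP6 and MT-ATP8 were found on exactly 1 set of 2 such clusters, and larger sets were not searched. On the first, cluster 10505240, the non-transgenic sample had a log2 signal of 11.52 and the TRAMP sample one of 10.57. On the linear scale these are intensities of 2928 and 1523, so that the TRAMP signal was 1.92-fold lower. On the second, cluster 10524310, the non-transgenic sample had 10.79 and the TRAMP sample 10.17, which is 1.53-fold lower. The mean over both rows was 11.15 without the transgene and 10.37 with it, a log2 difference of -0.78, or 1.72-fold lower. Both rows were past 1.5-fold, a log2 difference of 0.58. On the 2 rows named for ATP6 and ATP8 the mean difference was -0.0022. A larger decrease than on the rows holding the values stood on 196 of the 35557 rows for the first cluster and on 760 rows for the second. In bulk tissue, fewer cells that hold a transcript and less of it per cell cannot be told apart.

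VDAC3 was higher in the TRAMP sample on the rows holding its values. They were found on exactly 1 set of 3 rows, and the published list gives the same pair of values for VDAC1P5, the name of a pseudogene of the porin family. On cluster 10355138, the non-transgenic sample had a log2 signal of 4.72 and the TRAMP sample one of 5.55. Clusters 10369792 and 10405619 held an identical pair, 4.72 for the non-transgenic and 5.68 for the TRAMP sample, so the 3 rows carry only 2 distinct measurements. The increases were 0.83 on the first row and 0.96 on each of the other rows. The mean was higher by 0.92 on the log2 scale, or 1.89-fold, and by 0.90 with the repeated pair counted once. On the linear scale the intensities were 26.3 on all 3 rows without the transgene and 46.9 or 51.3 with it. On the 3 rows named Vdac3 the mean difference was 0.12, short of 1.5-fold. The difference on the rows holding the values lay between readings below the table's median log2 signal of 5.74. Among the 72 found genes of the list that were higher, 3 were higher by more than VDAC3.

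MRPL34 was higher in the TRAMP sample, by the smallest absolute difference of the 3 pairs, on the row holding its values, and lower on the row named for it, at -0.18. Its values stood on 1 row, cluster 10440558, where the non-transgenic sample read 5.78 and the TRAMP sample 6.41 on the log2 scale. The difference of 0.63 corresponds to a 1.54-fold higher intensity, 85.0 against 55.0. A larger increase stood on 1967 rows of the table. Of the 72 found genes that were higher, 25 were closer to the cut-off than MRPL34. The gene just inside it was TOX4 with 0.59, and on the lower side H1FX with -0.59. Over all rows, 0.58494 was the value just outside the upper cut-off and 0.58499 the value just inside.

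**Figure D1:**
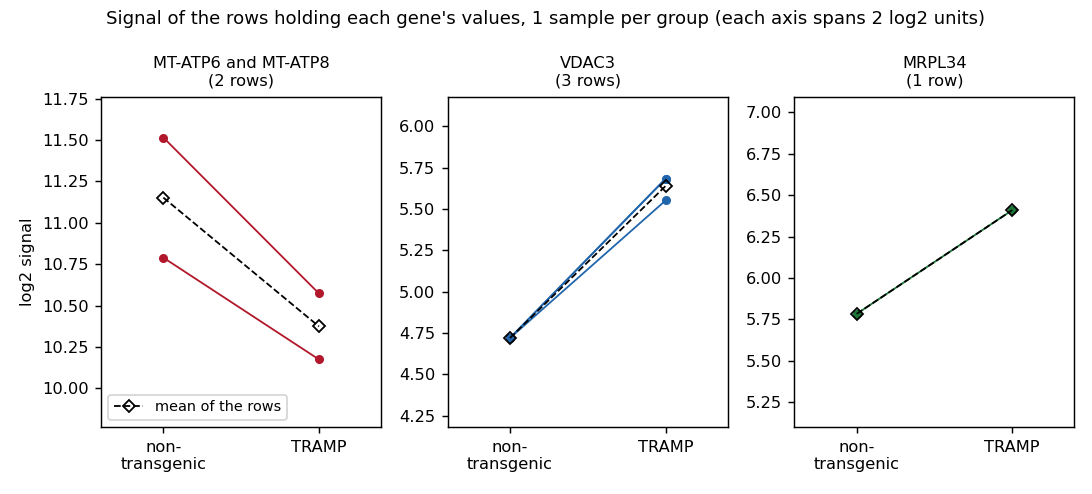
Log2 signal (vertical axis) in the non-transgenic and the TRAMP sample (horizontal axis) on each row that held the values of MT-ATP6 and MT-ATP8, VDAC3 and MRPL34. Each solid line is 1 row, open diamonds are the mean of the rows, and each axis spans the same number of log2 units; both MT-ATP lines slope down, with differences of -0.94 and -0.62, while the VDAC3 and MRPL34 lines slope up.

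All 6 rows were past 1.5-fold. The choice of the genes fixes this for the mean over a gene's rows, though not for each row. For comparison, 6.40% of all rows were higher and 2.44% were lower by at least 1.5-fold. The split of rows past 1.5-fold was 2276 higher and 869 lower as deposited, 1437 higher and 1174 lower after loess centring, and 1404 higher and 1184 lower after quantile normalization. Over all rows the median difference was 0.03, but the shift depended on signal and was larger among bright rows, as given below.

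The MT-ATP rows differed from the nuclear-encoded genes in brightness. Their mean log2 signals of 11.04 and 10.48 lay at the 99.6th and 99.4th percentile of all rows. The percentile was 31.8 or 33.4 for the VDAC3 rows and 62.3 for the MRPL34 row. Probes differ in how strongly they bind, so these percentiles describe the brightness of rows and not the abundance of the transcripts.

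Bright rows as a whole were higher in the TRAMP sample, opposite to the MT-ATP rows. Of the 230 rows at least as bright as the dimmer MT-ATP row, 38 (16.5%) were higher and 5 (2.17%) lower by at least 1.5-fold. Over all rows these shares were 6.40% and 2.44%, so only the share of higher rows departed from the table. The MT-ATP rows, which were chosen by their values, are 2 of the 5. The median difference of these 230 rows was 0.30. Among the 1000 rows nearest in mean signal to the brighter MT-ATP row, with signals from 8.60 to 13.46, the median difference was 0.43, 388 were higher and 27 lower by at least 1.5-fold. After loess centring, which takes out this trend with signal, the MT-ATP difference was -1.24, and after quantile normalization it was -1.17. Around the VDAC3 and MRPL34 rows no such shift was seen. The 1000 nearest rows had a median difference of 0.01 for each VDAC3 row and of 0.03 for MRPL34, and 28 to 49 of them were higher by at least 1.5-fold. MRPL34 fell short of the cut-off, at 0.51, once an offset of 16 was added to the linear intensities, while VDAC3 kept 0.64.

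**Figure D2:**
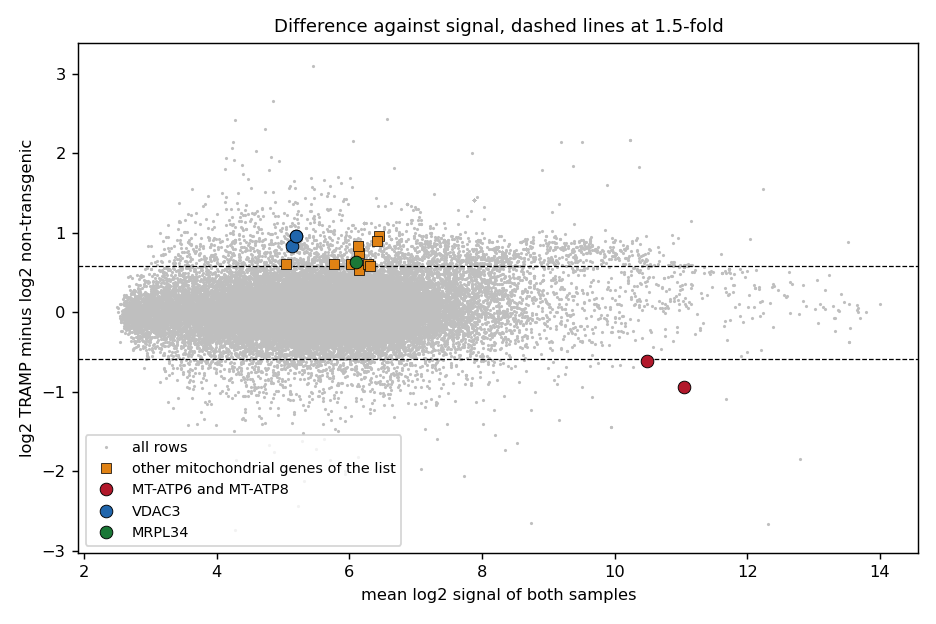
Difference of log2 TRAMP minus log2 non-transgenic (vertical axis) against the mean log2 signal of both samples (horizontal axis) for all 35557 rows, with the rows of the members as circles and those of 6 other mitochondrial genes as squares. The MT-ATP rows lie at the bright end below the lower 1.5-fold line, where most rows lie above 0, and the nuclear-encoded genes lie in the dim to middle range near or above the upper line.

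**Figure D3:**
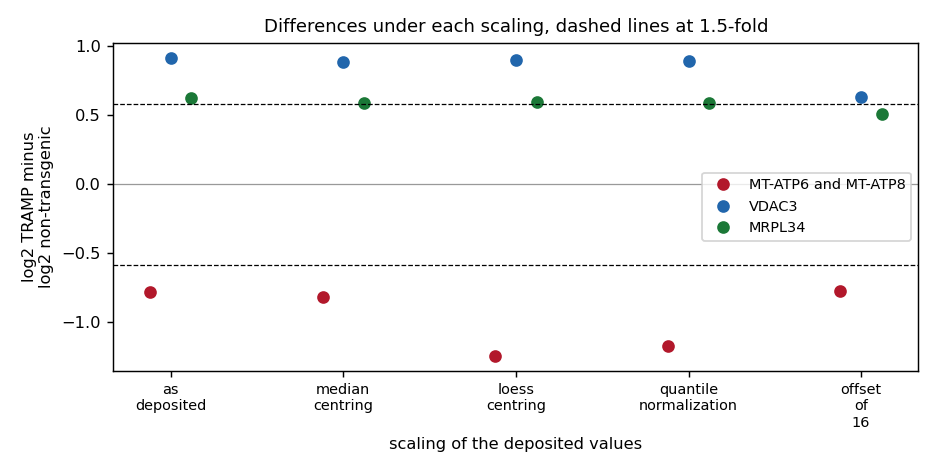
Difference of log2 TRAMP minus log2 non-transgenic (vertical axis) for the 3 pairs of values under 5 scalings of the deposited values (horizontal axis), with dashed lines at 1.5-fold. MT-ATP6 and MT-ATP8 run from -1.24 to -0.77, VDAC3 from 0.64 to 0.92 and MRPL34 from 0.51 to 0.63.

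The published list held other genes whose proteins work in mitochondria. Apart from VDAC1P5, 7 are described here and 6 of them were found. All 6 were encoded in the nucleus and higher in the TRAMP sample, from 0.59 to 0.85 with a median of 0.61, and MT-ATP6 and MT-ATP8 were the only genes of these 9 found pairs that were lower. As the list was selected on these samples, the count of 8 higher and 1 lower pairs is not independent evidence of a direction.

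VDAC1, another porin, was on a single row, with 4.74 against 5.34 in TRAMP and a difference of 0.61. Both porins of the list were thus higher on these rows, VDAC3 by more, whereas the row named Vdac1 was lower, at -0.89, and the rows named Vdac3 had a mean of 0.12. MRPL23, of the same ribosomal subunit as MRPL34, was on 2 rows with differences of 0.96 and 0.75. MRPS11, of the small subunit, was on 1 row with 5.72 and 6.32, a difference of 0.60. On these rows the signals of all 3 genes for proteins of the mitochondrial ribosome were higher, MRPL34 by an amount between MRPS11 and MRPL23. By row name the differences were -0.18 for MRPL34, -0.26 for MRPS11 and 0.34 for MRPL23, so that the first pair turned sign and no gene reached 1.5-fold.

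UQCRB, a subunit of respiratory complex III, was on 3 rows with differences of 0.89, 0.84 and 0.53, the last of them short of 1.5-fold. STOML2, a protein of the inner membrane, was on 1 row with a difference of 0.60. HAX1, a mitochondrial regulator of cell death, was on 2 rows with 0.60 and 0.58, of which the lower was short of 1.5-fold. No set of up to 3 rows held the values of ATP5L, a subunit of ATP synthase. Of the 10 rows behind the 6 genes, 8 were higher by at least 1.5-fold. The margins were small: of the 8 higher pairs, VDAC3 and MRPL34 included, 4 were past 1.5-fold after median centring, 5 after loess centring, 4 after quantile normalization and 3 with the offset.

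By the 2 log2 signals of both samples, the found gene of the list most like VDAC3 was UBE2N, at a Euclidean distance of 0.14, with 4.75 and, in TRAMP, 5.50. The gene most like MRPL34 was H2AFZ, at a distance of 0.04, with 5.75 and 6.43. For MT-ATP6 and MT-ATP8 the nearest was SP140, at a distance of 4.09, with 7.56 and 8.41. RNU3B1 and RNU3B3, which share a pair of values, followed at 4.25, with 8.15 and 7.36 and a difference of -0.79. The distance compares signals of different probes, so it is set by brightness as well as by the difference.

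None of the 6 rows carried the name of its gene in the table. The MT-ATP rows were named OTTMUSG00000025544, with other identifiers, and Ttc28. The VDAC3 rows were named Arid5b and 5133401N09Rik or had no name, and the MRPL34 row was named Zfp294. The name column did hold the members, on other rows. ATP6 and ATP8 stood together on 2 rows, with COX3 added on 1 of them, Vdac3 on 3 rows and Mrpl34 on 1 row.

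The number of rows named for a member therefore equalled the number of rows that held its values, 2 for MT-ATP6 and MT-ATP8, 3 for VDAC3 and 1 for MRPL34. The same held for nearly all genes of the published list that could be compared. Of the 136 genes, 105 were found by value, and 94 of these, each with a single possible set of rows, were present as a name. As many rows named as rows with values stood for 93 of the 94. Of these, 67 had 1 row of each, 16 had 2, 7 had 3 and 3 had 4. The genes with 4 rows had 1 pair of values repeated on each row. The exception was PMP22, with 3 rows by value and 1 by name. For 0 of the 94 did any row carry both the name and the values.

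On the rows named for the members, 0 of 6 differences were past 1.5-fold. Of all rows with a gene name, 5.35% were higher and 0.931% lower by that much. The rows named ATP6 and ATP8 had log2 signals of 6.47 (non-transgenic) and 6.43 (TRAMP), and of 5.85 and 5.89. The 3 rows named Vdac3 had 6.05 and 6.27, 6.86 and 6.88, and 6.67 and 6.78, a mean difference of 0.12. The row named Mrpl34 had 6.49 and 6.31, a difference of -0.18, opposite in sign to the row that held the published values. Names and published values stood on different rows for all 94 genes compared, so rows named for a gene are not known to measure it. By name, rows for cytosolic ribosomal proteins and for olfactory receptors were also about equally bright, with median log2 signals of 5.89 and 5.80. The values on named rows are therefore no check on the published ones. Whether the rows holding the published values measure the gene cannot be settled from the table alone. Of the 22 rows named for these mitochondrial genes of the list, 1, named for Atp5l among other names, was higher by at least 1.5-fold, and 1, named Vdac1, was lower, at -0.89. The share of higher rows is near that over all named rows, and a single lower row allows no comparison.

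**Figure D4:**
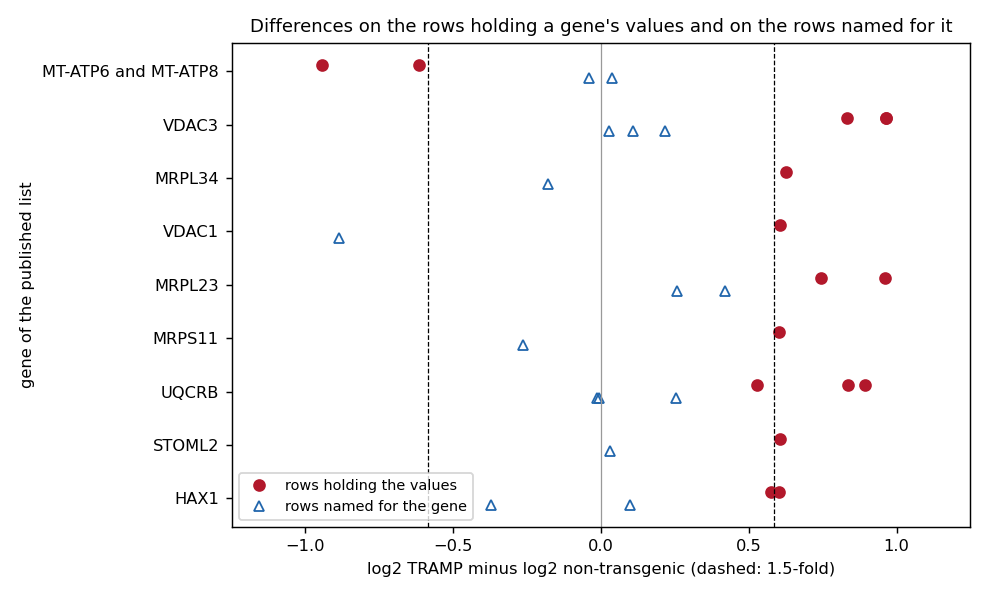
Difference of log2 TRAMP minus log2 non-transgenic (horizontal axis) for each found mitochondrial gene of the list (vertical axis), on the rows that held its published values (filled circles) and on the rows named for it (open triangles). The circles lie near or beyond the dashed 1.5-fold lines, MT-ATP6 and MT-ATP8 on the left and the other genes on the right, and the triangles lie between the lines except for the row named Vdac1.

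Rows named for wider mitochondrial groups were described as named, and no group stood out from the table. Because names and published values stood on different rows, these rows are not known to measure the groups. The medians therefore cannot tell whether the groups differed between the samples. The 13 rows named for genes of mitochondrial DNA, none of them for ND2, had a median difference of 0.05, with 1 row higher and 0 lower by at least 1.5-fold. That row was named COX2, a subunit of cytochrome c oxidase, with 7.81 and 8.61, while a second row of that name had 5.79 and 5.72. The 6 rows named for porins had a median difference of 0.07, with 0 higher and 1 lower. The 85 rows named for the mitochondrial ribosome had a median of 0.04, with 5 higher and 0 lower. The 109 rows named for respiratory complexes had a median of 0.02, with 5 higher and 1 lower, and the 45 rows named for carriers a median of 0.01, with 2 higher. The 26 rows named for protein import had a median of -0.0049, with 2 higher. Over all 25128 named rows the median difference was 0.04, with 1344 higher and 234 lower.

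The names did not separate gene groups by brightness either. The 407 rows named for cytosolic ribosomal proteins, which nearly all cells make in quantity, had 5.89 as the median of their log2 signals. Olfactory receptor genes, largely silent outside the nose, were named on 1146 rows with a median of 5.80. The 36 rows named for markers of 7 cell types or states, among them prostate secretory, seminal vesicle, smooth muscle and immune cells, had list medians of signal between 4.69 and 6.22. Their median differences ran from -0.15 to 0.36, with 2 rows higher and 2 lower by at least 1.5-fold. The tissue could therefore not be checked by its markers through the row names, and the part of cell composition in the differences of the members was not tested.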

How the data were processed

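Pooled RNA of 1 non-transgenic and 1 TRAMP sample was measured on Affymetrix arrays, whose number limits the precision. The authors deposited a table of log2 signals per transcript cluster, and linear intensity columns that are 2 to the power of the log2 values in the deposited table. The methods name dChip and do not give the normalization, and the array named there reports other identifiers than the table. Deposited columns that compare the groups were not used. They hold the quotient of the log2 values and the log2 of that quotient. A shorter deposited table of 9772 rows was used only to look up the rows described here.

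The difference was log2 TRAMP minus log2 non-transgenic, as deposited, with no test and no filter on low values. Each published pair of values was searched for, to 6 decimals, among single rows, then all sets of 2 and then all sets of 3 rows. The search stopped at the smallest size that gave a match. Names were compared without regard to case. The genome build of the files is not given in the sources used here, so no coordinates are printed. The members and lists were chosen with earlier results of these data known. The genes named are the members, the other mitochondrial genes of the list except 1 that is not reported here, the gene nearest to each member and those at the edge of 1.5-fold; the rule gave 3 nearest genes, of which the first is named, and all for MT-ATP6 and MT-ATP8. Alternatives were a loess fit of fraction 0.3, median centring, an offset of 16, quantile normalization, other cut-offs, a signal filter and rows taken by name. The counts of named rows only, of the 1000 rows nearest in signal, of rows as bright as the MT-ATP rows, and of the VDAC3 pair once were added after the data were examined. The search and counts were tested on simulated data. Scripts ran in Python 3.11.15 with statsmodels 0.14.6 for loess, numba 0.67.0 for the search, numpy 2.4.6 and pandas 2.3.3 for tables, and matplotlib 3.10.9 for plots.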

Additional observations from a re-analysis of the deposited data

How the results depend on the processing

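No paired analysis was possible because there is a single sample on either side, and no sample could be left out. The members kept their direction and stayed past 1.5-fold under median centring, loess centring and quantile normalization. MT-ATP6 with MT-ATP8 and VDAC3, which stand on more than 1 row, did so also by the log2 of the mean intensity and row by row. The offset took MRPL34 alone below it, to 0.5079. Taken by row name instead, the difference was -0.0022 for MT-ATP6 and MT-ATP8, 0.1166 for VDAC3 and -0.1785 for MRPL34. Among the other genes the sign turned for VDAC1 with -0.8877, MRPS11 with -0.2639 and HAX1 with -0.1364. Rows taken by name are not known to measure these genes, so these values are no check on the processing.

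Of the 9 found mitochondrial pairs, the 8 higher ones past 1.5-fold became 4 with median centring, 5 with loess centring, 4 with quantile normalization, 3 with the offset of 16, and 0 at 2-fold or on rows named for the gene. The 1 lower pair became 0 at 2-fold. On rows named for the gene the count of lower pairs was also 1, but this was VDAC1, at -0.8877, and not MT-ATP6 and MT-ATP8, at -0.0022. Over all rows, the 2276 higher ones became 1437 with loess centring, 1404 with quantile normalization, 1463 with the offset, 352 at 2-fold, 7351 at 1.2-fold, 1512 above the median signal and 1344 with a gene name. The 869 lower ones became 377 with the offset, 163 at 2-fold, 4465 at 1.2-fold, 394 above the median signal and 234 with a gene name. Other cut-offs, subsets and the offset, which shrinks every difference, alter counts by their construction. Loess centring takes out the trend with signal described above, and how much of the changes in counts this trend explains was not tested. Replicates are missing, so no value carries an error, and among the members the difference of VDAC3, on dim rows, moved most with the offset, to 0.6366.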

Other observations

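The shorter deposited table lists rows that are higher in the TRAMP sample, with 0 lower among its 9403 rows with values. It therefore holds neither MT-ATP row. Of the 16 rows behind the found mitochondrial genes, the pair of values of the 14 others stood in it, and 0 of them stood against the cluster that carries that pair in the full table. The MRPL34 pair stood against cluster 10437257 there and against 10440558 in the full table, and the VDAC1 pair against 10360942 and 10361110. In 1683 of the 9403 rows, the pair equalled that of the same cluster in the full table. The identifiers of clusters are given above as the full table has them. Which of the identifiers is right is not known, so the probes behind the values are not known either.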
